A study of Homo sapiens with 12 samples.

Results

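The genes described here carry melanosomes, the pigment granules of melanocytes, along the cytoskeleton and sort cargo into them. They are RAB27A, MLPH, MYO5A and SYTL2, which act in transport, and RAB38, RAB32, HPS4 and AP3B1, which act in sorting. These 8 genes were taken by name from the 56638 gene symbols of a table of RNA-Seq counts, and all 8 were among the 16080 genes that passed the filter on low counts. They were chosen with earlier results of these data known, so counts of calls among them are a description and not an independent test. Expression was measured in 501Mel, an established human melanoma cell line, in 12 libraries that form 6 groups of 2. The groups received DMSO as the vehicle, vemurafenib (Vem, 1 μM), resveratrol (RSV, 5 μM), TCDD (10 nM), RSV at 5 μM together with Vem at 1 μM (RSV+Vem), or RSV at 5 μM together with TCDD (RSV+TCDD), each over 48 h. The TCDD dose of RSV+TCDD is 10 nM in the treatment protocol and 1 nM in the source name of those libraries. Vem inhibits the mutated BRAF kinase of melanoma, TCDD is a dioxin that activates the Aryl hydrocarbon Receptor (AhR), a ligand-dependent transcription factor, and RSV is a plant polyphenol used here as an AhR antagonist. The study asked how BRAF inhibitors act through AhR, and the comparisons set each ligand against vehicle and each ligand with RSV against the same ligand alone. All libraries come from 1 cell line in culture, and the labels do not say that replicates were separate cultures, so p-values measure only the spread between these libraries, which may be technical.

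Melanosomes form from endosomes and then move from microtubules to the actin network beneath the cell membrane. RAB27A, a small GTPase on the mature melanosome, binds MLPH (melanophilin), which in turn holds MYO5A, the myosin Va motor that captures the granule on actin. Loss of any of these genes causes forms of Griscelli syndrome, with pale skin and silvery hair. SYTL2 is a synaptotagmin-like effector of RAB27A that tethers melanosomes to the cell membrane. RAB38 and RAB32 are closely related GTPases that send tyrosinase and TYRP1, enzymes of melanin synthesis, from endosomes to the maturing granule. HPS4 is a subunit of BLOC-3, the exchange factor that activates both of these GTPases, and AP3B1 is the large β3A subunit of the adaptor AP-3, which packs tyrosinase into transport vesicles. HPS4 and AP3B1 are mutated in types of Hermansky-Pudlak syndrome, which joins albinism with a bleeding disorder.

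The cells carried the markers of their label. Each of 7 melanocytic marker genes was at 390.2 or more CPM, counts scaled to the library total, in every library, from SOX10, a neural crest factor, at its lowest to PMEL, the melanosome fibril protein, at 22338. The 3 keratinocyte, 2 leukocyte and 2 endothelial markers stayed at or below 0.532 CPM, with KRT1 and PECAM1 at 0 in all libraries, and the 2 fibroblast markers reached 2.59 CPM. Counts on genes ranged from 8378655 in RSV+Vem replicate 2 to 25076925 in vehicle replicate 2, and the 8 genes held between 646 and 18552 counts per library. The spread between replicates exceeded counting noise in every group, since chi-square divided by its degrees of freedom lay between 4.81 (TCDD) and 23.6 (vehicle). RNA integrity numbers were between 8.6 and 9.7, the lowest being the 2 RSV+Vem libraries. Control sequences, whose counts were all on ERCC spike-ins, took 0.0389% and 0.0903% of the counts in the 2 RSV+Vem libraries, the widest gap within a group. In bulk RNA, fewer cells of a kind and less RNA per cell cannot be told apart.

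The 8 genes lie on 6 chromosomes of GRCh37. RAB27A (chr15:55495164-55611311) and MYO5A (chr15:52599478-52821329) are both on the minus strand of chromosome 15, and SYTL2 (chr11:85405267-85522202) and RAB38 (chr11:87846419-87908611) are both on the minus strand of chromosome 11. MLPH (chr2:238394071-238463965) and RAB32 (chr6:146864969-146876089) are on plus strands, and HPS4 (chr22:26839073-26879897) and AP3B1 (chr5:77296346-77590586) on minus strands. Exons of RAB27A overlap PIGB on the opposite strand, which held 2165 counts over the 12 libraries beside 54402 for RAB27A. They also overlap PIGBOS1, a protein-coding gene on the same strand, which is not among the counted symbols. Exons of HPS4 overlap SRRD on the opposite strand, with 25717 counts beside 76532, and ASPHD2, also opposite, with 592. Exons of AP3B1 overlap a processed pseudogene on the same strand. The counting was stated to use strand, which can part opposite genes but not RAB27A and PIGBOS1, or AP3B1 and this pseudogene.

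Upstream sequences are shown for MLPH and RAB32, which had the largest increases with Vem, and for MYO5A, which had the largest decrease with RSV. They are the 250 bases before a RefSeq start, 5′ to 3′ on the gene's strand, taken from the RefSeq table on GRCh38.p14 and placed on GRCh37 by exact match. Capitals mark the motifs searched on both strands, which were CACGTG and CATGTG, E-boxes of the kind bound by the melanocyte factor MITF, and GCGTG, the core of the xenobiotic response element bound by AhR with ARNT.
MLPH chr2:238395644-238395893 (+): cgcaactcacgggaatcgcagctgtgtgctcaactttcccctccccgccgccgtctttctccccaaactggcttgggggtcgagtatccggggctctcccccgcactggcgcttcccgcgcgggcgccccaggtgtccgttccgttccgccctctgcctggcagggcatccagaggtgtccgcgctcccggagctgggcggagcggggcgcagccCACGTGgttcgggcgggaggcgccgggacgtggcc
RAB32 chr6:146864719-146864968 (+): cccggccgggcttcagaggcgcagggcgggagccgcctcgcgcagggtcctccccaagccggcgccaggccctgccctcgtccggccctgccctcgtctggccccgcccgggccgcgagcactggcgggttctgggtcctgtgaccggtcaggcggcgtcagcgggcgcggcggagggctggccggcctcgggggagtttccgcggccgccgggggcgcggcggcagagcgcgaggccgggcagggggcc
MYO5A chr15:52821248-52821497 (-): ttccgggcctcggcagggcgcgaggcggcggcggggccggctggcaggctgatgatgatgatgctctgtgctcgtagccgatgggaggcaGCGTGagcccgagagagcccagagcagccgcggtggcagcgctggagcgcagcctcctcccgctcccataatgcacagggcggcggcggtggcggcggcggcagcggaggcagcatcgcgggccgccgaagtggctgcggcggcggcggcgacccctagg
MLPH holds CACGTG, which starts 35 bases before this start and which 6.34% of the 35093 RefSeq windows of this length hold. A second MLPH start, at chr2:238394803-238395052, has none of the motifs. RAB32, with 82.0% G and C, has none, and MYO5A holds 1 GCGTG, as do 32.2% of all windows. The table matched 5 of the 8 genes with 13 windows. All 5 RAB27A windows lack the motifs, 3 of 4 HPS4 windows hold GCGTG, and the other holds CATGTG, found in 9.41% of all windows. The HPS4 windows overlap in pairs and are not separate sequences. Those at chr22:26879830-26880079 and chr22:26879750-26879999 share a GCGTG site. RAB38, SYTL2 and AP3B1 have no entry in it.

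Per kilobase of the canonical transcript in GENCODE, RAB38 had the highest level of the 8 in every group, with group means between 337.7 and 561.1 CPM per kb. RAB32 came next in every group, between 139.4 and 505.3 CPM per kb. HPS4, RAB27A and MLPH followed, and HPS4 stood above RAB27A in vehicle, RSV, TCDD and RSV+TCDD and below it with Vem and RSV+Vem. The exons of all annotated transcripts together span 22355 bases for HPS4 and 11345 for RAB27A, beside 5066 and 3447 for the canonical transcripts. The order of the genes below RAB32 therefore depends on the length chosen. MYO5A, AP3B1 and SYTL2 had the lowest levels, with means between 14.4 and 50.3 CPM per kb. All levels are CPM scaled to library size with TMM factors. Those that follow are not divided by transcript length and compare a gene with itself.

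Group means of RAB27A, MLPH and MYO5A mRNA, the genes of the transport complex, stood highest with Vem, as did those of SYTL2, RAB32 and AP3B1. RAB27A was at 290.0 and 245.8 CPM in vehicle and at 464.0 and 469.8 CPM with Vem, at 144.5 and 182.0 CPM with RSV and at 211.4 and 253.6 CPM with RSV+Vem. The TCDD libraries gave 257.5 and 233.0 CPM of RAB27A, and those with RSV+TCDD 189.9 and 240.2 CPM. The Vem libraries lay above all others and the RSV libraries below all others, while vehicle and TCDD overlapped.

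MLPH was at 177.9 and 157.6 CPM in vehicle and at 363.6 and 355.0 CPM with Vem, a fold change of 2.14. It was at 145.2 and 147.0 CPM with RSV, at 181.3 CPM in each RSV+Vem library, at 182.8 and 184.3 CPM with TCDD and at 169.3 and 160.5 CPM with RSV+TCDD. Apart from the Vem libraries, which stood far above the rest, all MLPH levels lay within this range of 145.2 to 184.3 CPM.

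MYO5A was at 460.4 and 451.9 CPM in vehicle, at 596.6 and 624.3 CPM with Vem and at 505.8 and 462.8 CPM with TCDD. All RSV groups were far lower, at 182.2 and 215.4 CPM with RSV, 238.8 and 261.7 CPM with RSV+Vem and 228.8 and 238.6 CPM with RSV+TCDD. The 6 libraries with RSV did not overlap the 6 without it. This split by RSV was not seen in its partner MLPH, whose RSV+Vem libraries lay above those of vehicle.

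SYTL2, the membrane tether, was at 152.7 and 136.7 CPM in vehicle, at 175.6 and 180.3 CPM with Vem and at 156.8 and 186.6 CPM with RSV. It was at 127.8 and 141.4 CPM with RSV+Vem and at 137.3 and 143.3 CPM with RSV+TCDD, and each of these groups overlapped vehicle. With TCDD it was below vehicle, at 121.3 and 116.2 CPM. The TCDD libraries were the lowest of the 12, and the RSV+Vem libraries lay below those of Vem and of RSV.

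RAB38, the more abundant of the sorting GTPases, was at 634.2 and 559.3 CPM in vehicle, at 785.5 and 806.5 CPM with Vem and at 837.2 and 769.6 CPM with TCDD, so both ligands lay above vehicle and overlapped each other. It was at 454.0 and 513.1 CPM with RSV, at 577.5 and 587.7 CPM with RSV+Vem and at 591.8 and 675.7 CPM with RSV+TCDD. RAB32 was at 196.6 and 181.2 CPM in vehicle and at 507.0 and 569.3 CPM with Vem, the largest increase among the 8. RAB32 with RSV+Vem, at 275.3 and 292.4 CPM, lay between Vem and vehicle, and TCDD gave 235.5 and 213.8 CPM. The lowest RAB32 levels were with RSV, at 147.3 and 149.6 CPM, and with RSV+TCDD, at 143.6 and 156.9 CPM, which overlapped.

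HPS4, the BLOC-3 subunit, was highest in vehicle, at 411.7 and 419.9 CPM. It was at 374.7 and 387.4 CPM with TCDD, 370.5 and 362.7 CPM with Vem, 367.4 and 346.3 CPM with RSV+TCDD and 313.1 and 358.5 CPM with RSV. The RSV+Vem libraries were the lowest, at 276.8 and 289.7 CPM. AP3B1, the AP-3 subunit, was at 103.2 and 106.4 CPM in vehicle, 111.3 and 134.7 CPM with Vem and 110.7 and 107.7 CPM with TCDD. In the RSV groups it was at 59.6 and 59.0 CPM with RSV, 78.7 and 72.6 CPM with RSV+Vem and 76.8 and 73.0 CPM with RSV+TCDD, and these 6 libraries lay below the 6 without RSV, as for MYO5A.

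**Figure D1:**
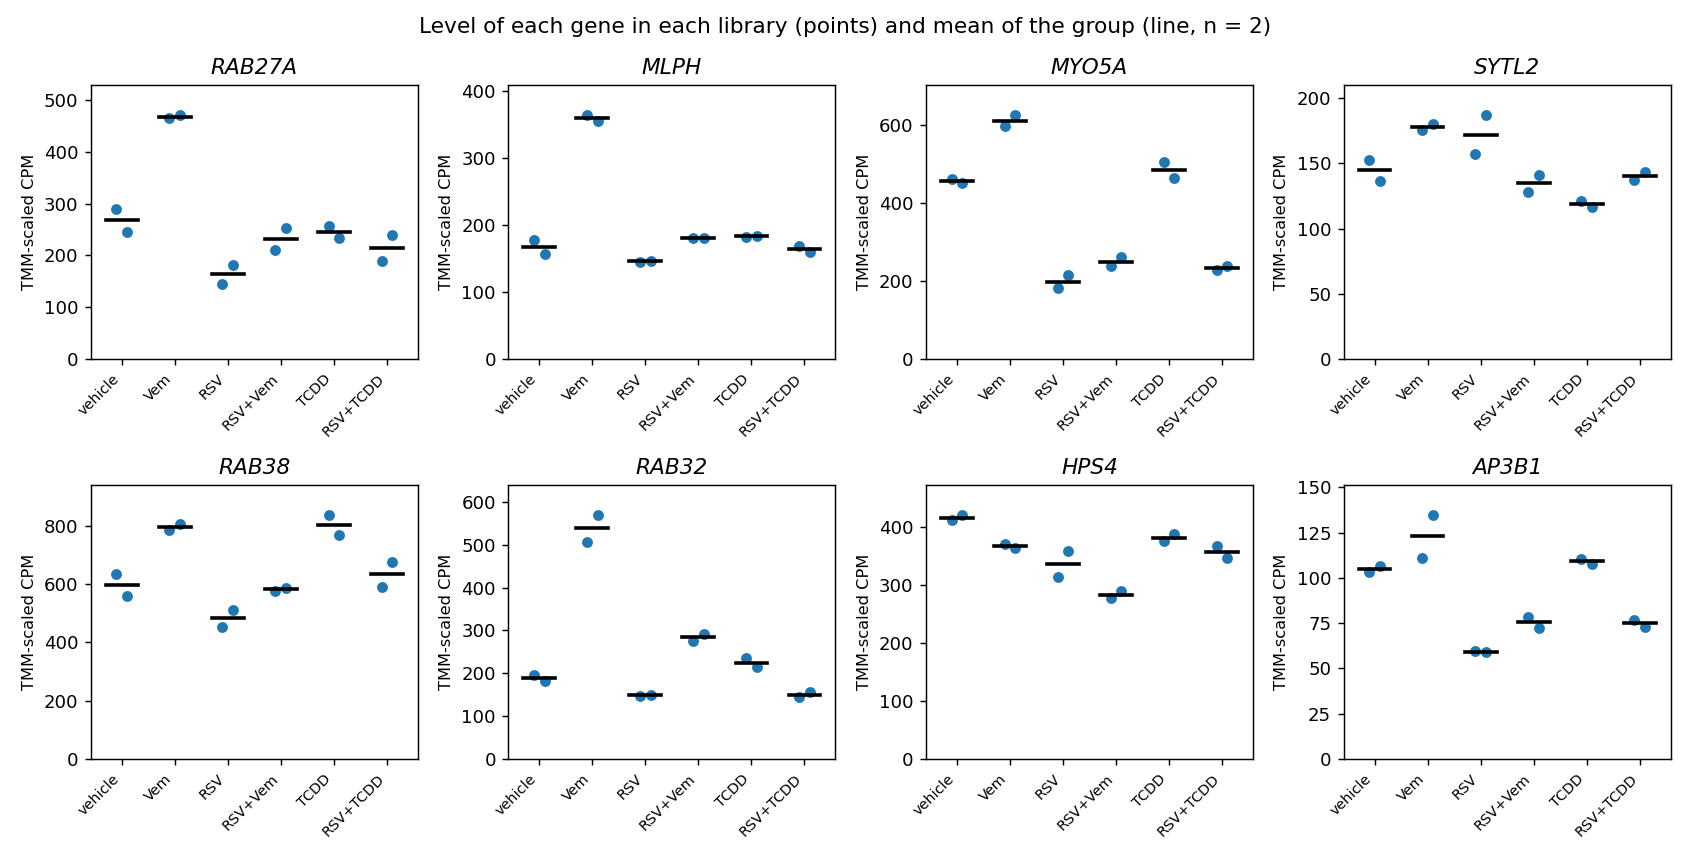
TMM-scaled CPM (vertical axis, from 0) of the 8 genes in the 6 groups (horizontal axis); points are libraries and lines the mean of the 2 in each group. MYO5A and AP3B1 are lower in all 6 libraries with RSV than in the 6 without it. The libraries with Vem alone lie above all others for RAB27A, MLPH, MYO5A, RAB32 and AP3B1.

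With Vem, 6 of the 8 genes rose and none fell against vehicle with TMM scaling. On the spike-in scale none of the 8 was called, and MYO5A, SYTL2 and RAB38 had negative values within 1 SE (0.42) of 0. The test was the quasi-likelihood F test of edgeR, and adjusted p-values are from the Benjamini-Hochberg method over all tested genes. Of all tested genes, 25.5% were called higher and 26.9% lower. The median log2 fold change of the 8 was 0.42, beside -0.03 over all tested genes. RAB32 rose 2.85-fold (log2 fold change 1.51, SE 0.092, adjusted p = 3.19e-10), MLPH 2.14-fold (1.10, SE 0.085, adjusted p = 6.53e-09) and RAB27A 1.74-fold (0.80, SE 0.13, adjusted p = 0.000107). MYO5A rose by 0.42 on the log2 scale (adjusted p = 0.0008), RAB38 by 0.42 (adjusted p = 0.00109) and SYTL2 by 0.30 (adjusted p = 0.0168). AP3B1 had a log2 fold change of 0.23 (95% interval 0.02 to 0.44, adjusted p = 0.0602) and HPS4 of -0.18 (-0.36 to -0.005, adjusted p = 0.0792). The SYTL2 call was lost without vehicle replicate 2 (adjusted p = 0.0997), Vem replicate 1 (0.0551) or Vem replicate 2 (0.0879). AP3B1 was called without Vem replicate 1 (adjusted p = 0.0166), with RLE factors (0.0439) and with at least 10 counts in every library (0.0484).

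With TCDD, the only gene of the 8 that was called was RAB38, which rose 1.35-fold with TMM scaling (log2 fold change 0.43, SE 0.093, adjusted p = 0.00916). On the spike-in scale RAB38 stood at -0.08 (SE 0.42) and was not called. The shares of all tested genes were 4.72% higher and 2.01% lower, and the median of the 8 was 0.07, beside -0.005 over all tested genes. SYTL2 had a log2 fold change of -0.28 (95% interval -0.49 to -0.08, adjusted p = 0.0963) and RAB32 of 0.25 (0.06 to 0.44, adjusted p = 0.109). Those of MLPH (0.13, adjusted p = 0.399), MYO5A (0.09, 0.628), AP3B1 (0.06, 0.783), RAB27A (-0.13, 0.626) and HPS4 (-0.13, 0.41) were smaller. The RAB38 call was lost without vehicle replicate 2 (adjusted p = 0.0821) or TCDD replicate 1 (adjusted p = 0.145), and SYTL2 was called lower with no filter on low counts (adjusted p = 0.0494).

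Vem and TCDD were also set against each other, with the 2 vehicle libraries playing no part in the contrast. With Vem 5 of the 8 genes were higher than with TCDD and none lower, where 24.1% of all tested genes were higher and 26.4% lower. RAB32 was 2.39-fold higher with Vem (log2 difference 1.26, adjusted p = 2.98e-09), MLPH 1.96-fold (0.97, adjusted p = 3.25e-08), RAB27A 1.90-fold (0.93, adjusted p = 2.78e-05), SYTL2 by 0.58 on the log2 scale (adjusted p = 8.7e-05) and MYO5A 1.26-fold (0.33, adjusted p = 0.00512). Without TCDD replicate 2 the MYO5A call was lost (adjusted p = 0.074). RAB38 showed a log2 difference of -0.01 (95% interval -0.21 to 0.18, adjusted p = 0.916). The values of AP3B1 (0.17, adjusted p = 0.165) and HPS4 (-0.06, adjusted p = 0.611) also missed the threshold, and AP3B1 passed it without Vem replicate 1 (0.0423) and in a fit of the 4 libraries compared alone (0.0345).

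With RSV, 6 of the 8 genes fell and none rose against the same vehicle libraries, where 20.2% of all tested genes fell and 20.5% rose. The median of the 8 was -0.33, beside -0.002 over all tested genes. MYO5A was 2.29-fold lower (log2 fold change -1.20, SE 0.093, adjusted p = 4.38e-08), AP3B1 1.77-fold lower (-0.82, SE 0.10, adjusted p = 6.92e-06) and RAB27A 1.64-fold lower (-0.71, SE 0.13, adjusted p = 0.000606). RAB32 (-0.35, adjusted p = 0.00556), HPS4 (-0.31, adjusted p = 0.00722) and RAB38 (-0.30, adjusted p = 0.0151) fell by less. MLPH had a log2 fold change of -0.20 (95% interval -0.38 to -0.02, adjusted p = 0.0704) and SYTL2 of 0.25 (0.04 to 0.45, adjusted p = 0.0529). The RAB38 call was lost without vehicle replicate 1 (adjusted p = 0.146) or RSV replicate 1 (0.145), and the HPS4 call without RSV replicate 1 (0.104). RAB38 also missed the threshold in a fit of the 4 libraries compared alone (adjusted p = 0.0505). SYTL2 was called higher without vehicle replicate 1 (adjusted p = 0.0404) or RSV replicate 1 (0.0159), with RLE factors (0.0443) and with at least 10 counts in every library (0.0258), and MLPH was called lower without vehicle replicate 2 (0.0317).

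Adding RSV to Vem lowered all 8 genes against Vem alone, where 18.7% of all tested genes fell and 19.1% rose. The median of the 8 was -0.81, beside 0.03 over all tested genes. MYO5A was 2.44-fold lower (log2 fold change -1.29, SE 0.093, adjusted p = 1.84e-08), RAB27A 2.01-fold (-1.01, SE 0.13, adjusted p = 2.79e-05), MLPH 1.98-fold (-0.99, SE 0.086, adjusted p = 1.06e-07) and RAB32 1.90-fold (-0.92, SE 0.091, adjusted p = 4.38e-07). AP3B1 (-0.70, adjusted p = 3.33e-05), RAB38 (-0.45, adjusted p = 0.000961), SYTL2 (-0.41, adjusted p = 0.0037) and HPS4 (-0.37, adjusted p = 0.002) fell by less. The SYTL2 call was lost without RSV+Vem replicate 1 (adjusted p = 0.0578).

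**Figure D2:**
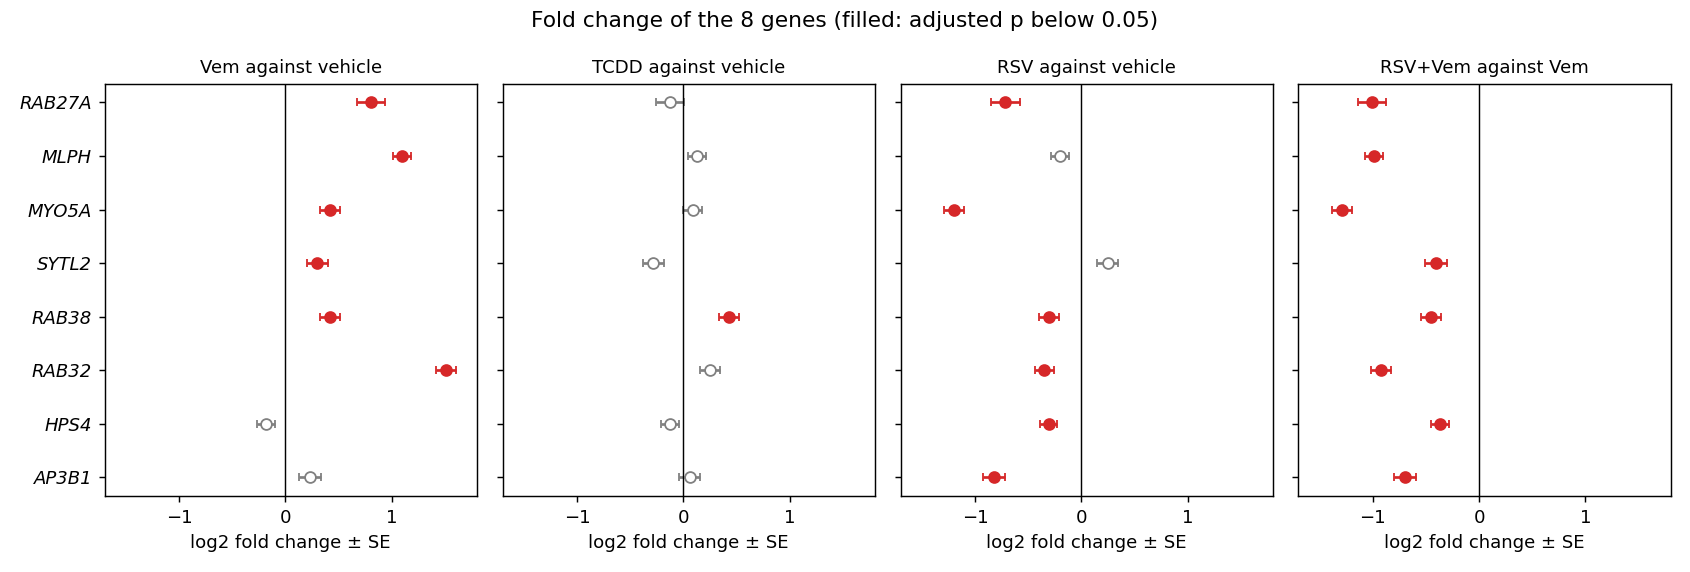
Log2 fold change (horizontal axis) of the 8 genes in 4 comparisons, with bars of 1 SE from the edgeR fit; filled points are called at an adjusted p below 0.05. With TMM scaling, Vem raised 6 genes, TCDD raised RAB38, RSV lowered 6, and RSV added to Vem lowered all 8. On the spike-in scale none of the 8 was called in these comparisons. There MYO5A, SYTL2 and RAB38 with Vem, and RAB38 with TCDD, had negative values within 1 SE of 0.

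Against RSV alone, RSV+Vem raised 6 of the 8 genes and lowered 2, where 11.3% of all tested genes rose and 13.4% fell. On the spike-in scale none of the 8 was called, and RAB32 was the 1 gene with a positive value (0.40, SE 0.42). RAB32 rose 1.91-fold (log2 fold change 0.93, SE 0.092, adjusted p = 1.18e-06), RAB27A by 0.51 on the log2 scale (adjusted p = 0.0119), AP3B1 by 0.36 (adjusted p = 0.017), MYO5A by 0.33 (adjusted p = 0.0141), MLPH by 0.31 (adjusted p = 0.0129) and RAB38 by 0.27 (adjusted p = 0.0437). SYTL2 (-0.35, adjusted p = 0.0146) and HPS4 (-0.25, adjusted p = 0.041) fell. Of these 8 calls, RAB32 was the only one kept under each omission of a library. Between 3 and 5 genes were called without RSV replicate 1, RSV replicate 2, RSV+Vem replicate 1 or RSV+Vem replicate 2, and 4 in a fit of the 4 libraries compared alone, where MYO5A (adjusted p = 0.0525), SYTL2 (0.0514), RAB38 (0.0684) and HPS4 (0.11) missed the threshold. HPS4 also missed it with no filter on low counts (0.0568).

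Against vehicle, the combination left RAB32 higher (log2 fold change 0.59, adjusted p = 4.3e-05, and -0.12 on the spike-in scale) and 3 genes lower, where 24.1% of all tested genes were higher and 24.7% lower. MYO5A was lower by 1.82-fold (-0.87, adjusted p = 7.54e-07), HPS4 by 1.47-fold (-0.55, adjusted p = 3.68e-05) and AP3B1 by 1.38-fold (-0.47, adjusted p = 0.000949). MLPH (0.11, 95% interval -0.07 to 0.29), RAB27A (-0.21, -0.49 to 0.07), SYTL2 (-0.11, -0.32 to 0.10) and RAB38 (-0.03, -0.23 to 0.16) were not called on the log2 scale.

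The interaction, which is the effect of RSV with Vem minus its effect without Vem, was called for 3 of the 8 genes, all lower, where 10.9% of all tested genes were lower and 11.8% higher. For MLPH it was -0.79 on the log2 scale (SE 0.12, adjusted p = 0.000162), since the fold change with RSV was -0.99 with Vem and -0.20 without. For SYTL2 it was -0.65 (SE 0.14, adjusted p = 0.00281), the difference between -0.41 and 0.25. The value for RAB32 was -0.58 (SE 0.13, adjusted p = 0.00355), from -0.92 and -0.35. MYO5A, which fell strongly with RSV in both settings, gave -0.09 (95% interval -0.36 to 0.18, adjusted p = 0.662). RAB27A (-0.29, adjusted p = 0.282), RAB38 (-0.15, 0.459), AP3B1 (0.12, 0.569) and HPS4 (-0.06, 0.739) were not called. The 3 calls were made under every omission of a library.

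**Figure D3:**
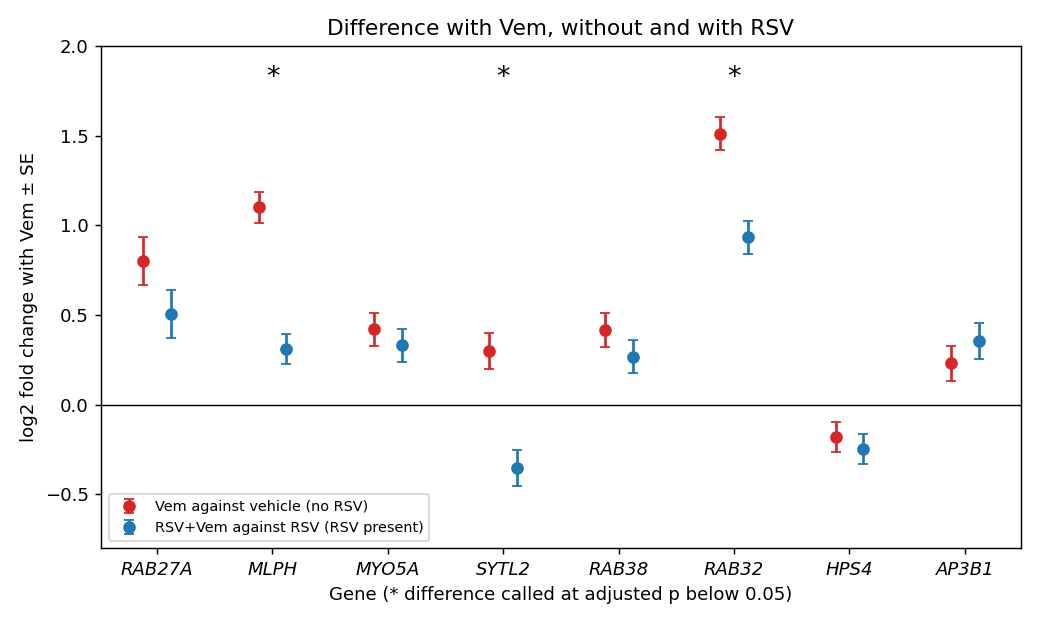
Log2 fold change with Vem (vertical axis) of the 8 genes, without RSV in red and with RSV in blue, with bars of 1 SE from the edgeR fit; a star marks a called interaction. For MLPH the value is 1.10 without and 0.31 with RSV, for RAB32 1.51 and 0.93, and for SYTL2 0.30 and -0.35.

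With TCDD, RSV lowered 4 of the 8 genes and raised none against TCDD alone, where 19.1% of all tested genes fell and 18.6% rose. MYO5A fell 2.07-fold (log2 fold change -1.05, SE 0.092, adjusted p = 2.19e-07), RAB32 1.49-fold (-0.58, adjusted p = 9.28e-05), AP3B1 1.46-fold (-0.54, adjusted p = 0.000397) and RAB38 1.27-fold (-0.34, adjusted p = 0.0077). SYTL2 (0.24, 95% interval 0.03 to 0.45), RAB27A (-0.19, -0.47 to 0.09), MLPH (-0.15, -0.33 to 0.02) and HPS4 (-0.09, -0.27 to 0.08) missed the threshold. SYTL2 was called higher with no filter on low counts (adjusted p = 0.0491), with at least 10 counts in every library (0.0316) and in a fit of the 4 libraries compared alone (0.0236), and stood at -0.45 on the spike-in scale. The RAB38 call was lost without TCDD replicate 1 (adjusted p = 0.102) or RSV+TCDD replicate 1 (0.114). All values with RSV+TCDD stand under the unsettled TCDD dose.

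Against RSV alone, RSV+TCDD raised RAB38 by 0.39 on the log2 scale (SE 0.094, adjusted p = 0.0187, and -0.64 on the spike-in scale), and none of the other 7 genes was called, where 3.89% of all tested genes were higher and 2.28% lower. RAB27A (0.40, adjusted p = 0.0896), AP3B1 (0.34, adjusted p = 0.0555) and SYTL2 (-0.29, adjusted p = 0.0875) came closest. The RAB38 call was lost without RSV replicate 1 (adjusted p = 0.11) or RSV+TCDD replicate 2 (0.19), and RAB27A was called without RSV+TCDD replicate 1 (0.0453) and SYTL2 without RSV replicate 1 (0.0304). With no filter on low counts RAB27A (adjusted p = 0.00141) and AP3B1 (0.0355) were called higher, and DESeq2 called AP3B1 (0.0459). Against vehicle, RSV+TCDD lowered 4 genes, where 21.5% of all tested genes were lower and 22.2% higher. These were MYO5A (-0.96, adjusted p = 4.34e-07), AP3B1 (-0.48, adjusted p = 0.000835), RAB32 (-0.33, adjusted p = 0.00721) and HPS4 (-0.22, adjusted p = 0.0413). Without vehicle replicate 1 or RSV+TCDD replicate 1, the calls were 2, MYO5A and AP3B1. The HPS4 call was lost under each omission of a library (adjusted p from 0.0665 to 0.196). It was also lost with DESeq2 (adjusted p = 0.0571), with no filter on low counts (0.072), with at least 10 counts in every library (0.07) and in a fit of the 4 libraries compared alone (0.0858). RAB27A (-0.32, adjusted p = 0.0639) was called without vehicle replicate 2 (0.0384) or RSV+TCDD replicate 2 (0.0143), with no filter (0.00565) and with the replicate block (0.0499).

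The interaction of RSV with TCDD was called for none of the 8 genes by edgeR, nor by DESeq2, and 1 of the 8 was below an unadjusted p of 0.05. With no filter on low counts RAB27A was called (0.56, adjusted p = 0.0125). Of all tested genes, 0.0124% were called higher and 0.137% lower. RAB27A had the largest value, 0.52 on the log2 scale (95% interval 0.13 to 0.92, adjusted p = 0.467), and the others lay between -0.23 for RAB32 and 0.28 for AP3B1.

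Scaling to the ERCC spike-ins in place of TMM shifted the log2 fold changes of all genes together. The median of all tested genes became -0.68 with Vem, -0.51 with TCDD and -0.17 with RSV, -0.02 for RSV+Vem against Vem and -1.20 for RSV+TCDD against vehicle. On that scale the SE of a log2 fold change of the 8 genes was between 0.417 and 0.437, beside 0.0841 to 0.134 with TMM. None of the 8 was called with Vem, TCDD or RSV or for RSV+Vem against Vem. Of all 16080 tested genes, 3815 were called with Vem, 10 with TCDD, 369 with RSV and 389 for RSV+Vem against Vem. With Vem, RAB32 (0.86), MLPH (0.45) and RAB27A (0.15) kept positive values, and MYO5A (-0.23), SYTL2 (-0.35), RAB38 (-0.24) and AP3B1 (-0.42) turned negative. RAB38 with TCDD turned to -0.08. The 8 values for RSV against vehicle and those for RSV+Vem against Vem kept their signs. Relative to the median of all genes, the values were within 0.0755 of those with TMM in each of the 12 comparisons. Subtracting the median removes a shift shared by all genes, so this closeness follows from the scaling and is not separate support for the TMM values.

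A list of 48 other genes of melanosome traffic was described beside these 8, and 43 of them were tested. With Vem and TMM scaling, 17 of the 43 (39.5%) rose and 9 (20.9%) fell, where 25.5% of all tested genes rose and 26.9% fell. The median log2 fold change was 0.21, beside -0.03 over all tested genes. On the spike-in scale none of the 43 was called higher and 7 were called lower, with a median of -0.44. Of all 16080 tested genes, 195 were called higher and 3620 lower on that scale, with a median of -0.68. All 6 subunits of HOPS, the complex that tethers vesicles to lysosomes and melanosomes, rose with TMM scaling, with a median of 0.75. On the spike-in scale none of the 6 was called, 3 had positive values, and the median was 0.10. VPS39, a HOPS subunit, had the largest increase of the list by the naming rule (log2 fold change 1.17, SE 0.096, adjusted p = 1.39e-08), from 65.8 and 66.1 CPM in vehicle to 149.9 and 146.0 CPM with Vem. RAB17, a GTPase of melanosome transfer, had the largest decrease (-1.09, SE 0.15, adjusted p = 6.23e-06), from 85.5 and 57.7 CPM to 33.4 and 34.0 CPM. With TMM scaling, 2 of 4 BLOC-2 and BLOC-3, 2 of 4 AP-3 and 3 of 6 AP-1 and KIF13A genes rose and none fell. Of 8 BLOC-1 genes 1 rose and 2 fell, and of 6 tested RAB27 relatives, effectors and regulators 2 rose and 2 fell. Of 6 tested other motors and adaptors 1 rose and 4 fell. Of 3 RAB32 and RAB38 relatives and partners none rose and 1 fell. The medians of these 7 groups, in this order, were -0.28, -0.42, -0.50, -0.77, -0.27, -1.11 and -0.77 on the spike-in scale. HPS1, the partner of HPS4 in BLOC-3, was named after its value was seen and rose by 0.53 on the log2 scale (adjusted p = 0.000428, and -0.12 on the spike-in scale).

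With TCDD, 2 genes of the list (4.65%) rose and 1 (2.33%) fell, near the 4.72% and 2.01% of all tested genes, and none was called on the spike-in scale. BLOC1S1, a BLOC-1 subunit, rose by 0.54 on the log2 scale (SE 0.14, adjusted p = 0.0269), and KIF5B, the heavy chain of a kinesin motor, fell by 0.39 on the log2 scale (SE 0.12, adjusted p = 0.0481). No gene of the list was called without vehicle replicate 1, TCDD replicate 1 or TCDD replicate 2.

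With RSV, 7 genes (16.3%) rose and 9 (20.9%) fell, near the 20.5% and 20.2% of all tested genes, with a median of -0.02 beside -0.002. None was called on the spike-in scale. UNC13D (Munc13-4), a RAB27 effector of secretory granules, had the largest increase (1.23, SE 0.27, adjusted p = 0.00128) at a low level, from 1.72 and 1.94 CPM to 5.24 and 3.47 CPM. ANKRD27 (VARP), an effector of RAB32 and RAB38 in the delivery of melanosome enzymes, had the largest decrease (-0.98, SE 0.10, adjusted p = 1.04e-06), from 150.4 and 125.5 CPM to 67.0 and 72.3 CPM. It was also at 77.3 and 72.1 CPM with Vem and at 62.9 and 66.1 CPM with RSV+Vem.

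For RSV+Vem against Vem, 4 genes of the list (9.30%) rose and 10 (23.3%) fell, where 19.1% of all tested genes rose and 18.7% fell. The median was -0.14, beside 0.03 over all tested genes, and none was called on the spike-in scale. EXPH5, another RAB27 effector, rose by 0.77 on the log2 scale (SE 0.27, adjusted p = 0.0301) from 2.85 and 2.23 CPM to 3.51 and 5.62 CPM. RAB7A, the late endosomal GTPase, fell by 0.68 on the log2 scale (SE 0.084, adjusted p = 5.27e-06) from 975.9 and 1108 CPM to 664.0 and 635.3 CPM. Of the HOPS genes 3 of 6 fell and none rose, and the calls on the list numbered 9 without Vem replicate 2.

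**Figure D4:**
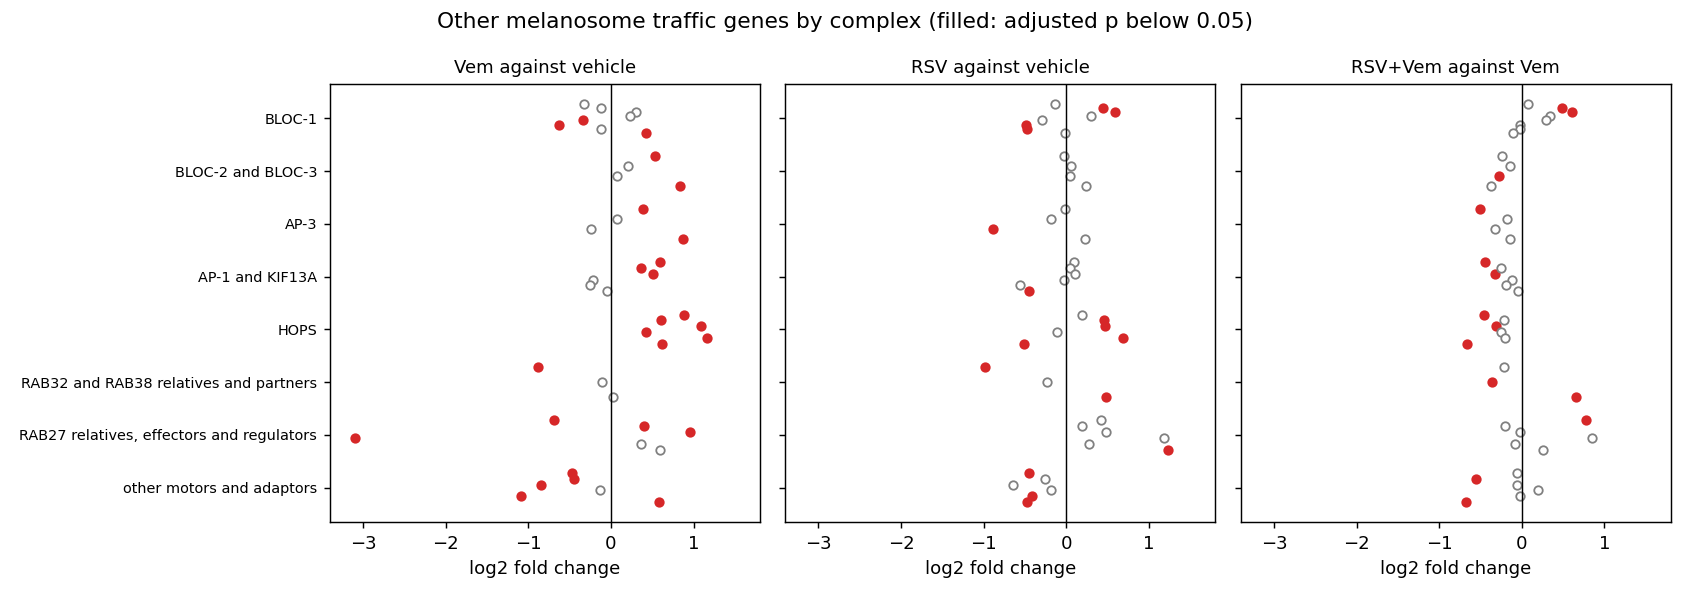
Log2 fold change (horizontal axis) of the 43 tested genes of the wider list, by complex (vertical axis), in 3 comparisons; filled points are called at an adjusted p below 0.05. With TMM scaling all 6 HOPS genes are filled and to the right of 0 with Vem, where 3 of the 6 were positive and none called on the spike-in scale, and the point farthest left is SYTL5, which was below 1 CPM in every library.

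Likeness of pattern was described with Pearson's r of log2 CPM over the 12 libraries, among 9890 genes with a mean of at least 10 CPM. These points share libraries and fall into 6 treatments of 2, so r is a description with no test. Among the 8 genes, MYO5A and AP3B1 (r = 0.966) and MLPH and RAB32 (r = 0.933) were most alike, and SYTL2 had values from -0.168 to 0.406 with the others. The closest 2 genes of all were SLC25A13 and NARS2 for MYO5A (0.995 and 0.994) and GSTM4 and VEGFB for MLPH (0.988 and 0.982). For RAB32 they were RHOBTB1 and MBP (0.990 and 0.988), for RAB27A SUCLA2 and VDAC2 (0.980 and 0.980), and for RAB38 AC145110.1 and PIR (0.976 and 0.958). HPS4 was closest to MMS19 and UTRN (0.950 and 0.944), and SYTL2, with CLCN3 and ZNF283 (0.927 and 0.916), had the least close neighbours. AP3B1 was closest to TBC1D5 (0.987).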

How the data were processed

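Stranded mRNA libraries (TruSeq) were sequenced as read pairs. The authors aligned them with STAR 2.4.0a to hg19 (GRCh37) and counted primary alignments per gene symbol with featureCounts of Subread 1.5.0-p3, with a strand setting, and deposited raw counts without normalization. The annotation release is not given in the sources used here. The stated strand setting counts the opposite strand from the one this kind of kit usually reads, but melanocytic genes carry high counts. Symbols shared by several genes give 1 value, and read copies were not removed, so counting error is a lower limit.

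The 96 control sequences (92 of them ERCC) were left out. edgeR 4.0.16 in R 4.3.3 fitted 1 term per group to all 12 libraries, with filterByExpr by group, TMM factors (0.890 to 1.08) and a robust quasi-likelihood fit, and calls were made below an adjusted p of 0.05. The study itself used DESeq2, here an alternative (DESeq2 1.42.0). SE is the absolute log2 fold change over the square root of F. Other alternatives were RLE factors, spike-in scaling, no filter, only the libraries compared, a replicate block, 10 or more counts required everywhere, and leaving out each library. The steps were tested on simulated data.

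The genes and lists were chosen with earlier results of these data known. The text names all 8 genes, per comparison the called gene of the wider list with the largest increase and decrease (50 or more mean counts where it is higher), and the 2 most similar genes of each, of which 1 is not reported here. Positions, transcript lengths and overlaps are from GENCODE v44 on GRCh37. Reads were not used here. The plots come from matplotlib 3.10.9 (Python 3.11.15).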

Additional observations from a re-analysis of the deposited data

Results flagged for a closer look

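The difference with RSV was not the same with and without Vem for 3 of the 8 genes, by the interaction term of the edgeR fit. The value was -0.79 for MLPH, -0.65 for SYTL2 and -0.58 for RAB32 on the log2 scale, and each lay past the threshold in all alternatives except spike-in scaling. On the spike-in scale the values were -0.66, -0.54 and -0.46, with an SE between 0.591 and 0.592 in place of 0.12 to 0.14, and were not called. Over the other alternatives the adjusted p was between 3.04e-08 and 0.00195 for MLPH, between 0.000175 and 0.0176 for SYTL2 and between 0.000338 and 0.0299 for RAB32.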

How the results depend on the processing

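Of 96 gene values and 16 counts of calls, no direction of a called gene was turned and no count of calls moved by over 1.5 times under the replicate block or RLE factors. Nothing in the labels pairs libraries by replicate number, and the differences between replicates gave no single pattern over the 15 group pairs, with r above 0.1 in 6 and below -0.1 in 5. They correlated between RSV and RSV+Vem (0.533), RSV and RSV+TCDD (0.421) and RSV+Vem and RSV+TCDD (0.370), and were opposed between TCDD and RSV (-0.501), RSV+Vem (-0.389) and RSV+TCDD (-0.398). With the replicate block the 8 genes had 6 calls with Vem, 1 with TCDD, 6 with RSV, 8 for RSV+Vem against Vem or against RSV, 1 for RSV+TCDD against RSV and 3 for the RSV by Vem interaction, as without it. The block changed 1 call of the 8 genes, RAB27A for RSV+TCDD against vehicle (-0.33, adjusted p = 0.0499), which made 5 calls there in place of 4. The block is 1 term shared by all groups, so it cannot take up replicate differences that run opposite ways between groups. Unchanged calls under it therefore do not show that such differences leave the calls untouched.

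Scaling to the spike-ins turned the sign of the following log2 values. For Vem against vehicle, MYO5A -0.23, SYTL2 -0.35, RAB38 -0.24, AP3B1 -0.42. For TCDD against vehicle, MLPH -0.38, MYO5A -0.42, RAB38 -0.075, RAB32 -0.25, AP3B1 -0.45. For RSV+Vem against RSV, RAB27A -0.050, MLPH -0.21, MYO5A -0.21, RAB38 -0.25, AP3B1 -0.15. For RSV+Vem against vehicle, MLPH -0.58, RAB32 -0.12. For RSV+TCDD against TCDD, SYTL2 -0.45. For RSV+TCDD against RSV, RAB27A -0.64, MLPH -0.84, MYO5A -0.78, RAB38 -0.64, RAB32 -1.02, HPS4 -0.92, AP3B1 -0.68. For RSV+TCDD against vehicle, RAB38 -1.12. For RSV by Vem interaction, MYO5A 0.026, HPS4 0.061. For RSV by TCDD interaction, RAB27A -0.012, MLPH -0.46, MYO5A -0.37, HPS4 -0.28, AP3B1 -0.23. Under it 0 of the 8 were called with Vem, TCDD or RSV, for RSV+Vem against Vem or against RSV, or for Vem against TCDD. The RSV by Vem interaction also gave 0. For RSV+TCDD against RSV, 2 of the 8 were called, each lower. There 1 of all 16080 tested genes was higher and 6926 were lower. For RSV+TCDD against vehicle, all 8 were lower, where 194 of all tested genes were higher and 9968 lower. The wider list had 0 higher and 7 lower with Vem, in place of 17 and 9. There 195 of all tested genes were higher and 3620 lower. The wider list had 0 calls with TCDD, RSV or RSV+Vem against Vem. The spike-in share of counts was 0.0389% and 0.0903% in the RSV+Vem libraries, and its part in these losses was not tested.

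Other alternatives turned only values that were not called: MLPH for RSV+TCDD against vehicle to 0.0091 with at least 10 counts, RAB38 for Vem against TCDD to 0.0088 with DESeq2, 0.0089 with RLE factors and 0.0061 in the libraries compared, and SYTL2 for the RSV by TCDD interaction to 0.027 without a filter. Without a filter, 1 of the 8 was higher and 1 lower with TCDD, where 829 of all 31085 genes were higher and 695 lower. For RSV+TCDD against RSV 3 were higher, where 875 of all were higher and 547 lower. For the RSV by TCDD interaction 1 was higher, where 88 of all were higher and 82 lower. DESeq2 called 2 higher for RSV+TCDD against RSV, where 632 of all 16080 were higher and 336 lower. The libraries compared alone gave 4 higher for RSV+Vem against RSV, where 1332 of all were higher and 1672 lower. The cause was not tested.

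Leaving out a library at a time, the calls ranged from 0 to 1 of the 8 for TCDD against vehicle, from 0 to 2 of the wider list for TCDD against vehicle, from 9 to 12 of the wider list for RSV+Vem against Vem, from 3 to 5 of the 8 for RSV+Vem against RSV, from 0 to 2 of the 8 for RSV+TCDD against RSV, from 2 to 4 of the 8 for RSV+TCDD against vehicle. Values not called that changed sign ranged from -0.11 to 0.059 for RAB38 in RSV+Vem against vehicle, from -0.048 to 0.080 for RAB32 in RSV+TCDD against RSV, from -0.0067 to 0.19 for HPS4 in RSV+TCDD against RSV, from -0.095 to 0.065 for MLPH in RSV+TCDD against vehicle, from -0.11 to 0.037 for SYTL2 in RSV+TCDD against vehicle, from -0.012 to 0.18 for RAB38 in RSV+TCDD against vehicle, from -0.073 to 0.049 for RAB38 in Vem against TCDD, from -0.21 to 0.036 for MYO5A in RSV by Vem interaction, from -0.16 to 0.036 for HPS4 in RSV by Vem interaction, from -0.0073 to 0.27 for AP3B1 in RSV by Vem interaction, from -0.045 to 0.14 for MLPH in RSV by TCDD interaction, from -0.13 to 0.12 for SYTL2 in RSV by TCDD interaction, from -0.14 to 0.062 for RAB38 in RSV by TCDD interaction. An arm left with 1 library takes its spread from the other groups.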
